A study of Mus musculus with 33 samples.

Results

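Male blastocysts cloned from Purkinje cells, the output neurons of the cerebellar cortex, were compared with male blastocysts made by in vitro fertilisation (IVF). The members were the arrays that the labels assign to these groups, 4 clones and 7 IVF blastocysts, which made 11 of the 33 arrays of the series. Each array carried amplified, Cy3-labelled RNA of 1 blastocyst on an Agilent platform. All 11 embryos were males of the (C57BL/6NxDBA/2)F1 strain and were taken as blastocysts. The clones came from adult donor cells, and the labels' shared protocol gives the culture of cloned embryos as 96 h. Cloned embryos received 50 nM trichostatin A (TSA), an inhibitor of histone deacetylases, for 1 h during activation with strontium, for 5 h together with cytochalasin B and for 2 h more. The titles record TSA for the clones and not for the IVF blastocysts, so nuclear transfer, donor cell and TSA cannot be told apart in this comparison. The number of donor animals or transfer sessions is not given in the labels, and the p-values therefore reflect the scatter among the deposited samples alone, part of which may be technical.

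A blastocyst consists of trophectoderm, which forms the placenta, epiblast, which forms the embryo proper, and primitive endoderm, which lines the blastocoel and lays down a basement membrane. In nuclear transfer an enucleated oocyte has to return a somatic nucleus to a state in which these lineages can form. Chromatin marks of the donor nucleus can persist through this step. In cloned mouse embryos ectopic Xist RNA, lost non-canonical imprints and incompletely opened genes are known outcomes, and inhibitors of histone deacetylases are used because they raise the success of cloning.

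Values are log2 of the processed signal over the 75th percentile of the same array, so 0 is a signal at that percentile, and a common floor lies at -3.43. The 75th percentile of the signal was 659.1, 602.9, 367.7 and 229.7 in clones 1 to 4 and 904.3 to 1258 in the IVF blastocysts. All 4 clone arrays were dimmer than every IVF array. Clones 3 and 4, the only ones under 500, are called the dim arrays below. Between 48.9% and 55.8% of the probes were well above background in clones, and between 56.0% and 60.8% in IVF blastocysts. The IVF arrays were scanned with another scanner and an earlier software version and lay on 3 slides, whereas the 4 clones shared 1 slide and 1 scan day, apart from the IVF arrays. Array set and group therefore cannot be told apart. On the IVF arrays 15.65% to 23.01% of the spots had a signal at or below 0, and on the clone arrays none had. With the floor, 18.44% of the values lay on it in clones and 19.84% in IVF blastocysts. A gene on the floor in the IVF blastocysts need not be absent there, and the part of this difference in such genes was not tested. Across genes, pairs of clones correlated at 0.96 to 0.983 (6 pairs), pairs of IVF blastocysts at 0.93 to 0.982 (21 pairs) and a clone with an IVF blastocyst at 0.908 to 0.949 (28 pairs).

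Of 15793 genes tested, 4513 (28.6%) differed, 2885 (18.3%) higher and 1628 (10.3%) lower in the clones at an adjusted p under 0.05 by limma. The median difference over all genes was 0.069. In 1322 genes (8.37%) every clone lay above every IVF blastocyst, and in 623 genes (3.94%) every clone lay below. Higher calls were more frequent among bright genes. Among the 3948 brightest genes 36.3% were higher and 5.60% lower, against 5.65% and 6.74% among the 3949 dimmest. Of the genes called higher, 70.2%, 66.6%, 89.9% and 87.6% lay above the whole IVF range in clones 1 to 4, so the dim arrays stood farther from IVF than the other two. The lower calls gave the same order, with 61.5%, 56.7%, 75.5% and 75.4% below the IVF range. Without the dim arrays of both sexes 1121 genes were higher and 561 lower. The split between directions depended on the scaling: with 2577 lower calls against 1064 higher calls, scaling to the array median turned the majority, as did quantile normalization with 2120 against 1869. Differences of named genes are given without a correction for this, so the direction of a small one may depend on the scaling. Counts of gene lists were read beside all genes tested. A core of 707 genes (405 higher, 302 lower) was called in the same direction under median scaling, quantile normalization, normexp background correction, the authors' deposited values and a scan day block, and without the dim arrays. Normexp kept 44.1% of the 4513 calls, and 418 turned sign. Sentences below on lost calls name mainly the fit without the dim arrays, normexp and single blastocysts left out. A gene may also have lost its call under settings not named there.

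Sex chromosomes were examined first as a check of the labels. Ddx3y, a Y-linked RNA helicase, was 2.63, 3.04, 2.58 and 2.18 in clones 1 to 4, against 2.17 to 4.23 (median 3.67) in the IVF blastocysts. Eif2s3y, a Y-linked translation factor subunit, was 3.25, 3.90, 4.25 and 4.32 in clones 1 to 4, against 2.49 to 4.12 (median 3.32) in the IVF blastocysts. Probes of both genes were well above background on all 11 arrays, as the label male requires. Neither gene passed the test between groups. Of 9 measured Y-linked genes on the list 3 were higher and 1 was lower. Kdm5d, a histone demethylase, was -0.028, -0.65, 0.78 and 0.20 in clones 1 to 4, against -2.83 to -0.31 (median -1.48) in the IVF blastocysts, a difference of 1.72 ± 0.34 (SE, adjusted p = 0.00044). Rbmy, a family of RNA-binding proteins of the male germ line, was at least 8.66-fold higher, and Usp9y, a deubiquitinase, at least 6.17-fold lower. A bound is written where a group was on the floor or nowhere well above background. Calls ended without the dim arrays for Kdm5d and Rbmy and after normexp for Usp9y.

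Xist, the noncoding RNA that coats and silences an X chromosome, was 1.78, 0.38, 2.95 and 3.46 in clones 1 to 4 and on the floor in all 7 IVF blastocysts. The clones were at least 47.5-fold higher (adjusted p = 1.7e-09), and clone 2 had the least Xist. The SD was 1.37 in clones and 0 in the IVF values on the floor, so this limma p may be too small. Other Xist probes differed by 0.10, 0 and 0.88 between the groups, so the size of the rise rests on the brightest probe. Of 551 X-linked genes 46 (8.35%) were higher and 123 (22.3%) lower, with a median difference of -0.18. On the autosomes the share of higher genes ran from 13.98% on chromosome 7 to 24.2% on chromosome 13, and the share of lower genes from 6.24% on chromosome 3 to 14.7% on chromosome 17. The mean of X-linked genes minus that of autosomal genes on the same array was -0.85, -0.41, -0.55 and -0.52 in clones 1 to 4, and between -0.20 and 0.023 in the IVF blastocysts. All 4 clones lay below all IVF blastocysts. Clone 1 had the lowest X-linked mean and clone 4 the most Xist, while clone 2 had both the least Xist and the X-linked mean nearest to IVF. The dim arrays, clones 3 and 4, had the most Xist. A link between Xist and X-linked genes across the 4 clones was not tested.

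**Figure D1:**
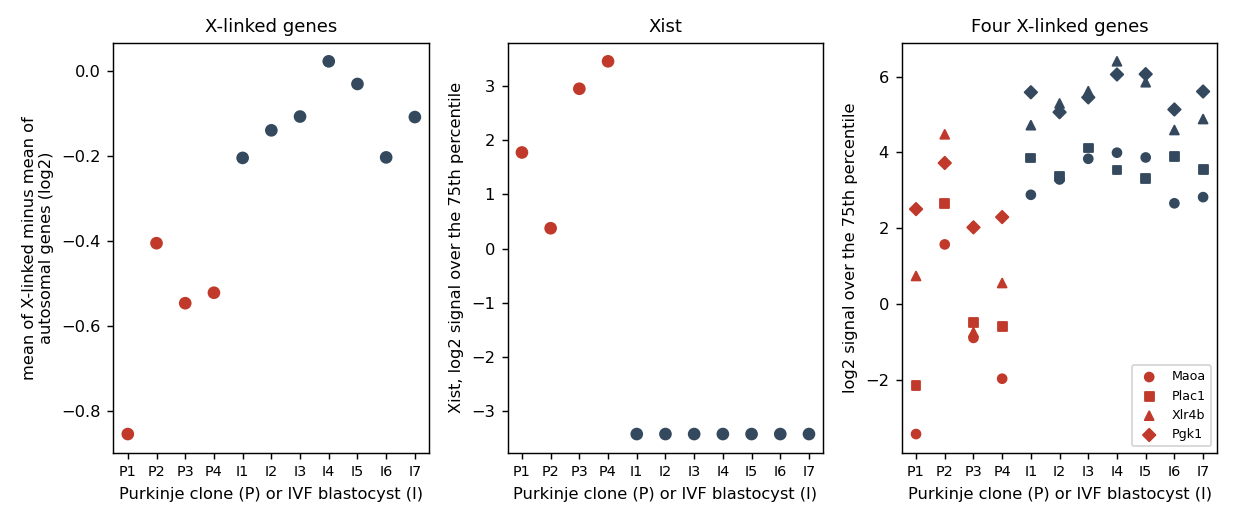
X-linked readouts in male blastocysts. The left panel plots the mean of X-linked minus autosomal genes (log2) and the middle panel Xist (log2 signal over the 75th percentile), 1 point per array, and the right panel plots single X-linked genes, with clones labelled by replicate. All 4 clones lie above the IVF blastocysts in Xist and below them in the X minus autosome mean, and clone 2 lies apart in Maoa, Plac1 and Xlr4b.

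Single X-linked genes differed widely between the clones. Maoa, the enzyme that oxidises serotonin and noradrenaline, was -3.43, 1.57, -0.89 and -1.97 in clones 1 to 4, against 2.66 to 3.99 (median 3.29) in the IVF blastocysts, a difference of -4.51 ± 0.78 (SE, adjusted p = 0.00012). Plac1, a gene needed for placental growth, was -2.15, 2.66, -0.48 and -0.59 in clones 1 to 4, against 3.32 to 4.12 (median 3.55) in the IVF blastocysts, and differed by -3.80 ± 0.97 (SE, adjusted p = 0.0043). Pgk1, a glycolytic kinase on the X chromosome, was 2.50, 3.72, 2.02 and 2.29 in clones 1 to 4, against 5.06 to 6.07 (median 5.59) in the IVF blastocysts, a difference of -2.93 ± 0.50 (SE, adjusted p = 9.7e-05). In all 3 genes clone 2 was nearest to IVF, and all 4 clones were still below the IVF range. The SD of the 4 clones was 2.11 for Maoa and 2.02 for Plac1, whereas the SEs rest on the pooled scatter. Slc7a3, a carrier of cationic amino acids, differed by -3.73 ± 0.73 (SE, adjusted p = 0.00044), and Phka2, a regulatory subunit of phosphorylase kinase, by -3.13 ± 0.48 (SE, adjusted p = 3.3e-05). Nsdhl, a sterol enzyme, fell by 2.21, while the sterol isomerase Ebp rose by 1.32. Of 45 X-linked enzyme and transporter genes 8 were higher and 9 lower, with a median of 0.095 that turned negative under 4 settings. Median scaling gave 5 higher and 14 lower, quantile normalization 5 and 13, normexp 1 and 12, and the fit without the dim arrays 3 and 6. Higher members included Prps1 (1.19), a nucleotide synthesis enzyme, and Timm8a1 (1.08), a mitochondrial import factor. Of 16 genes of the X inactivation locus or known to escape inactivation, 3 were higher and 1 lower. Significance was lost without the dim arrays for Plac1 and after normexp for Ebp, Prps1 and Timm8a1.

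The Magea, Xlr and Rhox families are X-linked clusters of near-identical germ-line genes, and a probe may bind transcripts of more than 1 copy, which leaves single members uncertain. All 5 measured Magea genes and 4 of 5 Xlr genes were lower, with medians of -3.97 and -4.08. Magea3 was -3.43, -3.43, -2.81 and -1.31 in clones 1 to 4, against 0.028 to 2.43 (median 1.14) in the IVF blastocysts, a difference of -4.02 ± 0.39 (SE, adjusted p = 6.1e-08). Xlr3c was -3.43, 1.32, -3.43 and -3.43 in clones 1 to 4, against 1.75 to 3.87 (median 3.11) in the IVF blastocysts, a difference of -5.12 ± 0.79 (SE, adjusted p = 3.3e-05). Xlr4b was 0.74, 4.48, -0.74 and 0.55 in clones 1 to 4, against 4.59 to 6.40 (median 5.29) in the IVF blastocysts, and 2 other probes of it also fell, by 4.68 and 4.18. Clone 2 again held the most signal of the 4 clones in Xlr4b. For Xlr3c the SE rests on the pooled scatter and understates the spread of these 4 clones. Of 4 measured Rhox genes 1 was called. It was Rhox5, a homeobox gene of placenta and gonads, at 6.63, 5.86, 8.15 and 8.06 in clones 1 to 4, against -1.23 to 3.15 (median 0.92) in the IVF blastocysts, the largest rise among the genes tested at 6.17 ± 0.57 (SE, adjusted p = 3.2e-08). The lowest clone lay well above the highest IVF blastocyst for Rhox5. The threshold was missed without the dim arrays for Xlr4b.

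The largest changes were taken among called genes that were well above background on all 11 arrays and did not overlap between groups. After Rhox5 the largest rises were those of Nat2 (4.59), an arylamine N-acetyltransferase, Plk2 (4.46), a polo-like kinase, Mgst2 (3.91), a microsomal glutathione transferase, and Anxa8 (3.85), a membrane-binding annexin. Anxa8 was 4.66, 4.67, 4.03 and 4.38 in clones 1 to 4, against 0.033 to 1.25 (median 0.62) in the IVF blastocysts, so the clones differed by little among themselves. Mgst2 was 3.31, 1.77, 4.20 and 3.88 in clones 1 to 4 and lay between -1.72 and 0.39 (median -0.25) in the IVF blastocysts. Sgcb, a sarcoglycan, rose by 3.55, but its other probe gave 1.00. Dnajc6, the auxilin that uncoats clathrin vesicles, rose by 3.50, the stress-responsive small Maf factor Maff by 3.31, and Cdkn1a, which blocks cyclin-dependent kinases, by 3.38. The remaining 3 rises belong to transcripts named only by accession. Nat1, the paralogue of Nat2, and Nat8, another acetyltransferase, were chosen after their values were seen and rose by 3.97 and 3.89.

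**Figure D2:**
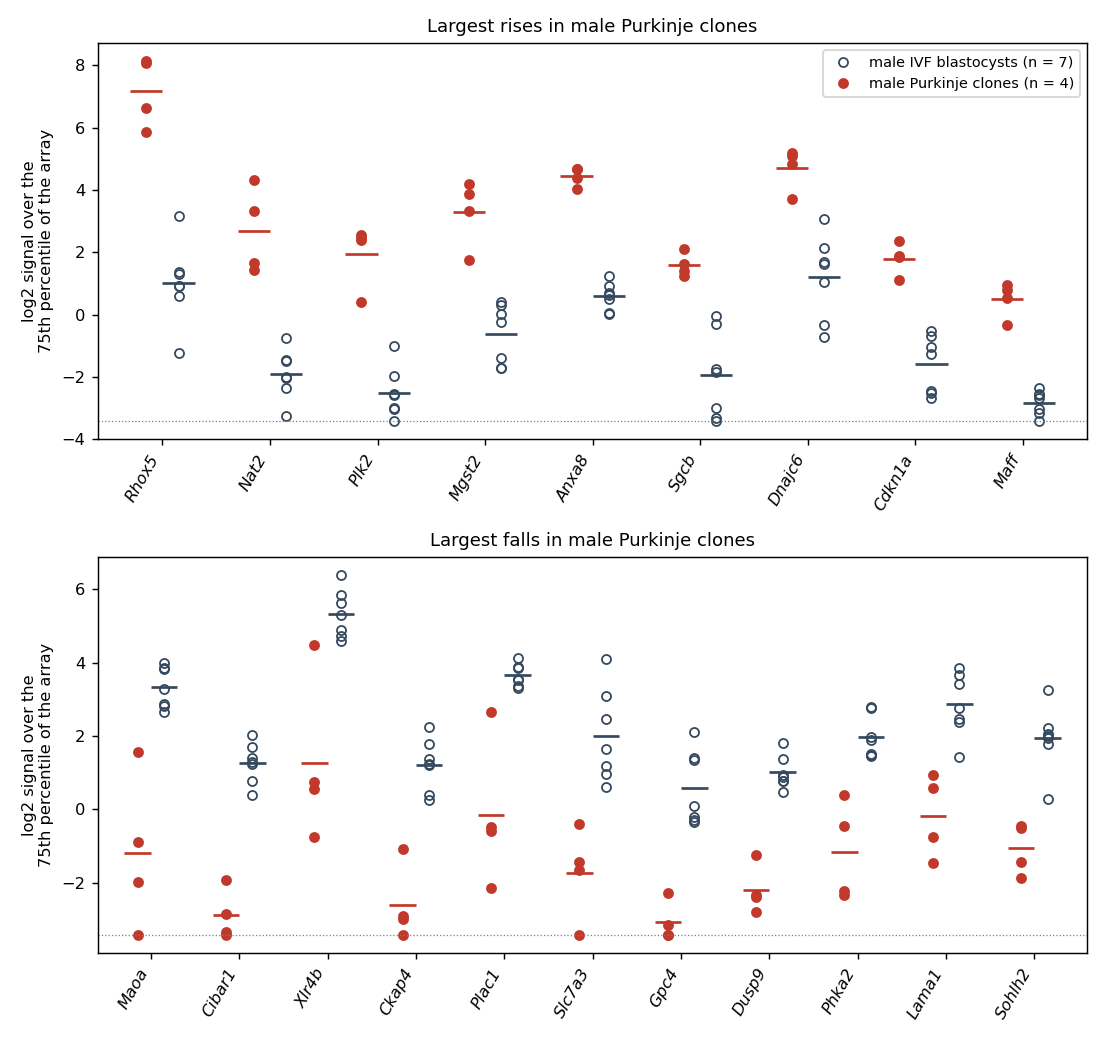
Genes with a symbol from the 12 largest rises and genes from the 12 largest falls among called genes well above background on all 11 arrays, without overlap of the groups. Each point is 1 blastocyst (log2 signal over the 75th percentile), with the 4 clones and 7 IVF blastocysts in different colours, and the floor is at -3.43. The clones spread most in Maoa, Xlr4b and Plac1.

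Of the 12 largest falls 7 were X-linked, namely Maoa, Xlr4b, Plac1, Slc7a3, Gpc4, Dusp9 and Phka2. Gpc4, a glypican of the cell surface, was -3.43, -2.29, -3.15 and -3.43 in clones 1 to 4, against -0.35 to 2.12 (median 0.10) in the IVF blastocysts. Dusp9, a phosphatase of MAP kinases, fell by 3.20, with its other probe at -0.98. The autosomal falls included those of Cibar1, a protein of the ciliary base, Ckap4, a membrane protein of the endoplasmic reticulum, Lama1, a laminin chain, and Sohlh2, a germ-cell factor. Cibar1 was -3.43, -1.93, -2.84 and -3.34 in clones 1 to 4, against 0.40 to 2.03 (median 1.30) in the IVF blastocysts, a difference of -4.15 ± 0.55 (SE, adjusted p = 6.1e-06). Ckap4 was -2.90, -3.43, -1.07 and -2.99 in clones 1 to 4, against 0.25 to 2.24 (median 1.24) in the IVF blastocysts, a difference of -3.81 ± 0.74 (SE, adjusted p = 0.00041). Lama1 fell by 3.03 at its brightest probe, while another probe gave -0.16. Calls were lost without the dim arrays for Lama1.

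Some genes were well above background on every array of one group and on none of the other. In the clones these were led by Klra1, a lectin-like receptor of natural killer cells, which was 1.00, -2.18, 1.41 and 1.13 in clones 1 to 4 and on the floor in all 7 IVF blastocysts, at least 13.7-fold higher. Klra15 of the same family was at least 5.9-fold higher and was on the floor in clone 2, the clone with the lowest Klra1. These genes have near-identical copies, so the member is uncertain. Cldn34d, a claudin, Hr, a nuclear corepressor, and Rbms3, an RNA-binding protein, were at least 5.07-fold, 3.27-fold and 2.57-fold higher. Genes seen in the IVF blastocysts alone were led by Car2, a carbonic anhydrase, at least 14.2-fold lower in the clones. Foxa2, an endoderm factor, Asz1, a germ-line protein of the piRNA pathway, and Cobl, an actin nucleator, were at least 13.4-fold, 10.52-fold and 10.2-fold lower. Car2 was on the floor in all 4 clones, against -2.36 to 2.93 (median 0.093) in the IVF blastocysts. Maged2, an X-linked protein of the MAGE family, was at least 7.37-fold lower. With 1 blastocyst left out at a time, the call ended for Cldn34d (without clone 1 or 4) and Rbms3 (without clone 3). Calls ended without the dim arrays for Klra15, Cldn34d, Hr and Rbms3 and after normexp for Cobl and Maged2.

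Gene lists were then read by the number of their measured members called in each direction, against 18.3% higher and 10.3% lower over all genes. The p53 response (16 of 31 higher), non-canonical imprints (8 of 18), glutathione and antioxidant enzymes (14 of 39) and autophagy and lysosome genes (14 of 39) held shares of higher genes above that background. The Rhox, Magea and Xlr families (9 of 14 lower), primitive endoderm (10 of 24), sterol synthesis (10 of 25) and DNA methylation (7 of 19) held shares of lower genes above it. The lists were chosen with earlier results of these data known, so the counts are descriptions and no test of a list was made. The median of the autophagy and lysosome list, 0.32, turned to -0.022 with median scaling and to -0.093 after normexp, and its counts to 1 higher and 4 lower after normexp. The glutathione list kept the sign of its median but not its majority, with 4 higher and 12 lower under median scaling, 7 and 12 after quantile normalization and 5 and 11 after normexp. The other 6 lists kept the sign of the median and the majority under those scalings, in the authors' deposited values and without the dim arrays, except that primitive endoderm then had 2 higher and 2 lower. Lists not named in this paragraph also held shares of higher genes above the background. Among them were the 2-cell programme (5 of 13), fatty acids and lipid droplets (16 of 42), Nodal, BMP and Wnt signalling (9 of 26) and chaperones (11 of 32).

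**Figure D3:**
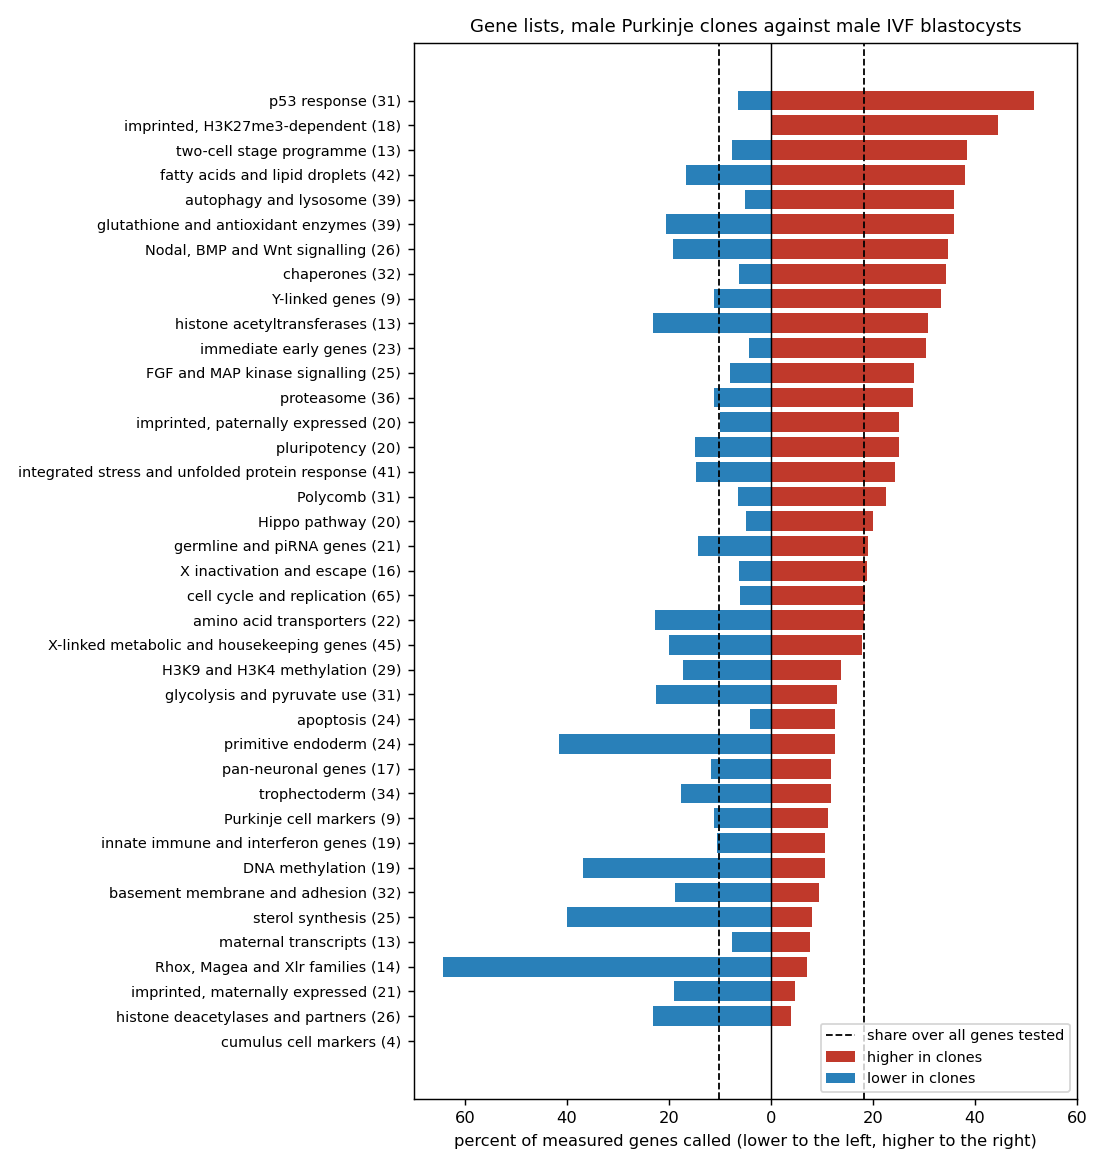
Percent of the measured genes of each list that were called lower (to the left) or higher (to the right) in male Purkinje clones against male IVF blastocysts, with the number measured in parentheses and dashed lines at 18.3% higher and 10.3% lower for all genes tested. The p53 response reaches 51.6% higher and the Rhox, Magea and Xlr families 64.3% lower. Medians of the lists on trophectoderm, chaperones, glycolysis, proteasome, autophagy and several signalling lists change sign under other scalings.

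Primitive endoderm had 10 of 24 measured genes lower and 3 higher, with a median difference of -0.82. Among its factors, Foxa2 was on the floor in all 4 clones (adjusted p = 2.5e-05), which had no scatter, so this p may be too small. Sox7, an endoderm factor, was lower by -2.84 ± 0.86 (SE, adjusted p = 0.014), and Gata4 was at least 1.74-fold lower. Gata6, which starts the lineage, was 6.70, 6.09, 6.16 and 6.29 in clones 1 to 4, against 5.24 to 5.76 (median 5.66) in the IVF blastocysts, a rise of 0.77 ± 0.18 (SE, adjusted p = 0.002). Sox17 (-0.26, adjusted p = 0.91) and Hnf4a (-0.10, adjusted p = 0.9) did not pass, although the other Sox17 probe gave -1.65. Receptors, matrix and secreted products had 7 of 17 lower and 1 higher, with a median of -1.04. Serpinh1, the collagen chaperone, was 1.17, 1.20, 2.53 and 1.93 in clones 1 to 4, against 2.94 to 4.62 (median 3.40) in the IVF blastocysts, a difference of -2.10 ± 0.52 (SE, adjusted p = 0.0034). Amn and Cubn, partners in a receptor of the endoderm's apical membrane, differed by -3.39 and -1.87, and the matrix chains Lama1, Col4a2 and Lamb1 by -3.03, -1.71 and -1.35. Calls that ended when 1 blastocyst was left out were those of Gata4 (without clone 1, 3 or 4 or IVF blastocyst 3, 4 or 5), Cubn (without clone 4), Col4a2 (without clone 4) and Lamb1 (without clone 1 or 4). Significance was lost without the dim arrays for Sox7, Gata4, Amn, Cubn, Lama1, Col4a2 and Lamb1 and after normexp for Sox7, Gata4 and Gata6.

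Other matrix and secreted members did not pass, among them Srgn (-2.63), Col4a1 (-1.21) and Sparc (-0.85, with its other probe at -3.06), nor did Pdgfra (-0.24) and Dab2 (0.49). P4ha2, a collagen prolyl hydroxylase, rose by 0.86. The mean over the list was 1.35, 1.19, 1.81 and 1.44 in clones 1 to 4 and between 1.61 and 3.33 in the IVF blastocysts, so clone 3 lay inside the IVF range. In whole blastocysts, fewer cells of a lineage and less RNA per cell cannot be told apart. The summed signal of 6 defining markers of primitive endoderm was 209.6 to 273.3 in clones and 128.3 to 231.5 in IVF blastocysts. These ranges overlap, and their shift is opposite in direction to the list median. The sum is on the linear scale, so bright markers weigh most in it, among them Gata6, which was itself called higher. It therefore does not measure the number of primitive endoderm cells.

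Pluripotency genes stayed near the background, with 5 of 20 higher, 3 lower and a median of -0.0022, and with 1 to 2 higher and 4 to 5 lower under the other 3 scalings. The core factors did not pass. Pou5f1 differed by -0.53 (adjusted p = 0.076), Nanog by 0.23 (adjusted p = 0.75), Sox2 by 0.71 (adjusted p = 0.12), and Klf2, Klf4 and Esrrb by 0.83, -0.74 and 0.34. Zfp42 (Rex1), a marker of naive pluripotent cells, was 6.51, 6.37, 7.17 and 7.07 in clones 1 to 4, against 4.81 to 5.33 (median 5.13) in the IVF blastocysts, a rise of 1.68 ± 0.18 (SE, adjusted p = 4.3e-07). Dppa3, which protects maternal methylation marks, and Dppa5a, an RNA-binding protein, rose by 1.13 and 0.71. Lin28a, which blocks maturation of let-7 microRNAs, was -1.15, -0.71, -0.09 and -0.80 in clones 1 to 4, against 0.21 to 1.00 (median 0.65) in the IVF blastocysts, a difference of -1.37 ± 0.25 (SE, adjusted p = 0.00022). Tdgf1, the Nodal co-receptor Cripto, fell by 1.35. The threshold was missed without the dim arrays for Dppa3, Dppa5a and Tdgf1 and after normexp for Dppa3 and Dppa5a.

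Trophectoderm genes were 4 higher and 6 lower of 34, with a median of 0.12 that turned to -0.22, -0.31 and -0.37 under median scaling, quantile normalization and normexp. The lineage factors Cdx2 (0.46, adjusted p = 0.22), Gata3 (0.60, adjusted p = 0.059), Eomes (0.29) and Elf5 (-0.34) did not pass, nor did the keratins Krt8 (0.26) and Krt18 (0.10). Hand1, a factor of trophoblast giant cells, was 0.58, 0.32, 1.34 and -0.38 in clones 1 to 4 and on the floor in all 7 IVF blastocysts, at least 14.9-fold higher. Tfap2c, another trophoblast factor, rose by 1.19. Krt7, a keratin of simple epithelia, was 2.15, 1.32, 2.90 and 1.88 in clones 1 to 4, against 3.39 to 4.87 (median 3.98) in the IVF blastocysts, a difference of -2.15 ± 0.40 (SE, adjusted p = 0.00025), and Cldn4, a tight-junction claudin, fell by 1.44. The summed signal of 7 defining trophectoderm markers was 938.5 to 1468 in clones and 827.8 to 1296 in IVF blastocysts, overlapping. Calls were lost without the dim arrays for Tfap2c and Cldn4 and after normexp for Tfap2c.

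**Figure D4:**
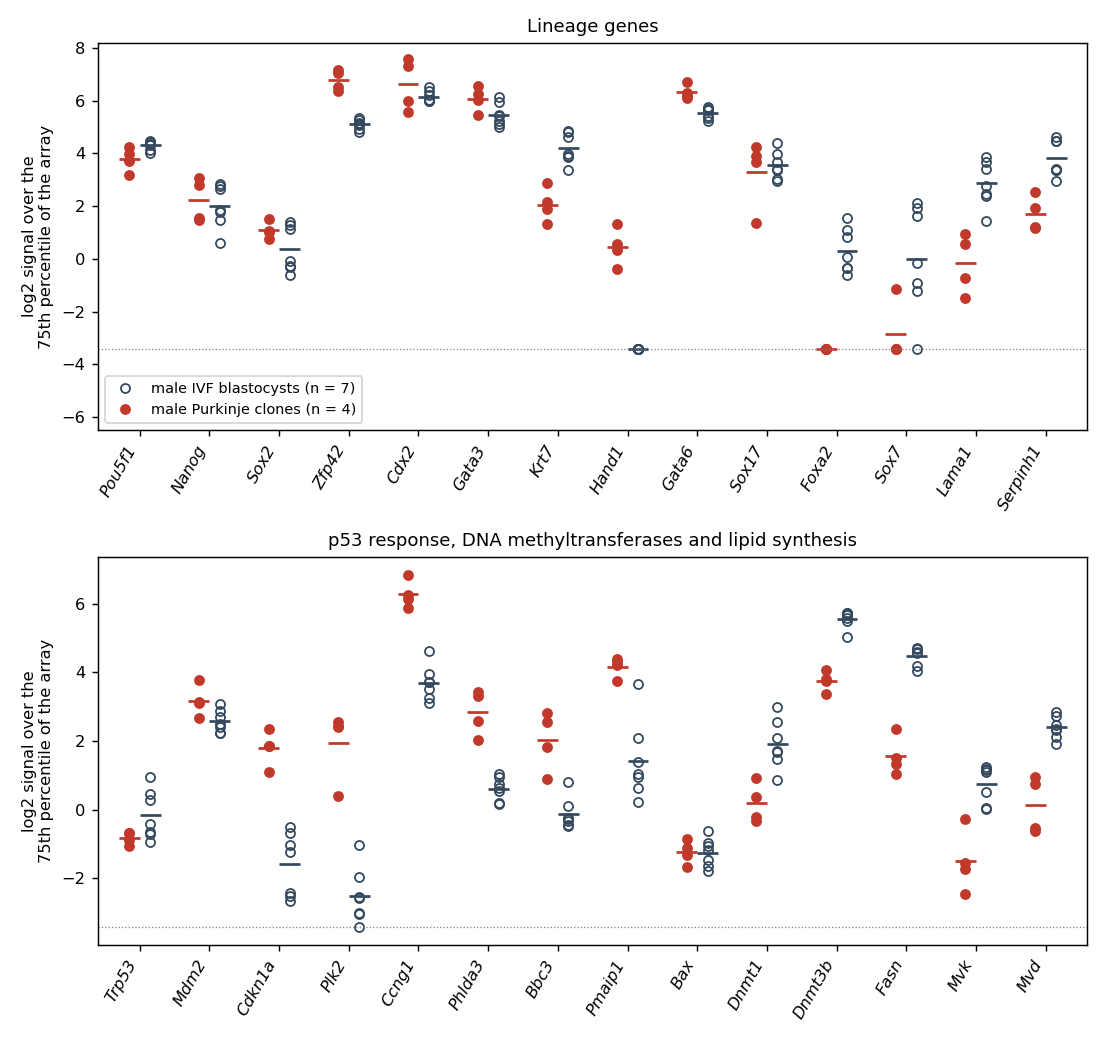
Lineage genes (upper panel) and genes of the p53 response, DNA methylation and lipid synthesis (lower panel), 1 point per blastocyst, as log2 signal over the 75th percentile. The groups overlap for Pou5f1, Nanog, Sox2 and Bax and are apart for Zfp42, Krt7, Foxa2, Cdkn1a, Plk2, Dnmt3b and Fasn.

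Signals that divide the lineages gave mixed counts. Of 26 genes of Nodal, BMP and Wnt signalling 9 were higher and 5 lower, with a median of -0.37 that became 0.20 after normexp. Among ligands, Bmp8b was -0.46, -0.032, -1.82 and -0.40 in clones 1 to 4, against -3.43 to -2.25 (median -3.43) in the IVF blastocysts, a rise of 2.40 ± 0.62 (SE, adjusted p = 0.0049), while Bmp4 and Wnt7b fell by 1.37 and 1.41. Nbl1, a secreted BMP antagonist, was 0.97, 1.68, -0.083 and 0.87 in clones 1 to 4, against -1.93 to -0.94 (median -1.57) in the IVF blastocysts, a rise of 2.44 ± 0.46 (SE, adjusted p = 0.00027). Of the receptors, Acvr2a rose by 1.62, with another probe at 0.41, and Bmpr1a by 0.74. The transducers Smad2, Smad3, Smad4 and the inhibitory Smad7 were higher by 0.86, 1.22, 1.21 and 0.78, with another Smad4 probe at -0.27, and Id3, a target of BMP, was lower by 1.45. Of 25 genes of FGF and MAP kinase signalling 7 were higher and 2 lower, against 3 and 6 with median scaling and 1 and 4 after normexp. The kinase Mapk3 (ERK1) fell by 1.75. Hras fell by 1.17, and the exchange factor Sos1 rose by 1.65. The feedback inhibitors Dusp6 and Dusp4 rose by 1.49 and 1.26. Spry2 of the same role gave 0.94 at its brightest probe and -2.48 at the other, so its direction is unsettled. In the Hippo list 4 of 20 were higher and 1 lower, with Ccn2, a target of the effector YAP, at 1.41.

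The p53 response held 16 higher and 2 lower genes of 31, with a median of 0.88. The mean over its genes was 1.94, 2.02, 1.59 and 2.04 in clones 1 to 4 and 0.37 to 1.02 in the IVF blastocysts, so every clone exceeded every IVF blastocyst. Of the regulators, Trp53 itself was lower by -0.69 ± 0.24 (SE, adjusted p = 0.035), with another probe at -0.01. Mdm2, which degrades p53 and is also its target, differed by 0.60 ± 0.22 (SE, adjusted p = 0.041), and its relative Mdm4 by -1.05 ± 0.25 (SE, adjusted p = 0.0025). Other Mdm4 probes gave 1.04, 0.81, 0.13 and -1.45, so the direction of Mdm4 is unsettled. Genes of cell cycle arrest and repair had 11 of 21 higher and none lower. Cdkn1a was 1.86, 1.86, 1.097 and 2.35 in clones 1 to 4, against -2.67 to -0.51 (median -1.25) in the IVF blastocysts, a rise of 3.38 ± 0.57 (SE, adjusted p = 9.4e-05). Plk2 was 2.41, 2.55, 0.39 and 2.45 in clones 1 to 4, against -3.43 to -1.02 (median -2.57) in the IVF blastocysts, a rise of 4.46 ± 0.75 (SE, adjusted p = 8.3e-05), with clone 3 the lowest of the clones. Calls that ended when 1 blastocyst was left out were those of Trp53 (without clone 1, 3 or 4 or IVF blastocyst 1, 6 or 7) and Mdm2 (without clone 1, 2 or 4 or IVF blastocyst 1, 5, 6 or 7). Calls ended without the dim arrays for Trp53, after normexp for Trp53 and Mdm2, and under another setting for Mdm4.

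Further members rose without overlap. Ccng1, a cyclin induced by p53, was 5.88, 6.15, 6.27 and 6.85 in clones 1 to 4, against 3.09 to 4.64 (median 3.71) in the IVF blastocysts, a rise of 2.59 ± 0.37 (SE, adjusted p = 1.6e-05). Phlda3, an inhibitor of Akt, was 3.43, 3.32, 2.02 and 2.59 in clones 1 to 4, against 0.15 to 1.04 (median 0.62) in the IVF blastocysts, a rise of 2.23 ± 0.45 (SE, adjusted p = 0.00053). Genes of cell death had 4 of 7 higher with a median of 1.25. Bbc3 (Puma), which starts mitochondrial apoptosis, was 2.55, 1.82, 0.90 and 2.81 in clones 1 to 4, against -0.48 to 0.81 (median -0.29) in the IVF blastocysts, and Pmaip1 (Noxa) rose by 2.74 ± 0.46 (SE, adjusted p = 8.9e-05). Apaf1, the apoptosome scaffold, rose by 1.92, and Perp, a membrane protein, by 1.25 over the 4 IVF blastocysts with a value. Bax, in contrast, was at 0.015 (adjusted p = 1), and the repair genes Ddb2 (0.025) and Polk (0.16) and the growth arrest gene Gadd45a (0.25) did not pass. Aen, a nuclease, Rrm2b, a ribonucleotide reductase subunit, and Btg2, an antiproliferative factor, rose by 1.62, 1.51 and 1.88, with other Btg2 probes at 0.09 and 0.45. In the separate apoptosis list 3 of 24 were higher and 1 lower. Leaving out single blastocysts ended the call of Perp (without clone 3 or 4 or IVF blastocyst 6). Significance was lost without the dim arrays for Apaf1, Perp and Rrm2b, after normexp for Perp, and under another setting for Btg2.

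The promoter of Cdkn1a is shown because the gene is a textbook target of p53 and its promoter held a match to a p53 half-site pair. The letters CATGNNNNNNCATG were searched on both strands in 23 list promoters present in the sequence table. The window was the 250 bases before the first RefSeq start listed for a gene, which need not be its main start. Other starts were not searched. The match was found in Cdkn1a alone (4.35% of 23), against 0.246% of 10567 promoters of genes tested and 0.507% of 27025 in the table. The sequence is that of chr17:29090729-29090978 on the plus strand in GRCm38.p6, 5′ to 3′, with the fixed letters of the match in capitals.
Cdkn1a: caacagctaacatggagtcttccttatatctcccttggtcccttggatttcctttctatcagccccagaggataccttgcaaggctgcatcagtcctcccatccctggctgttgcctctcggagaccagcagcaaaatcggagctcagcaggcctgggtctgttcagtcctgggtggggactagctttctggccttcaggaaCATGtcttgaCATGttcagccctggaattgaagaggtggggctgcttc
A match is a description of letters and says nothing about binding, and the other 22 list promoters had no match in this window.

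Cell cycle genes had no settled direction. Of 65 measured cyclin, kinase and replication genes 12 were higher and 4 lower, with a median of -0.034. Median scaling gave 1 higher and 13 lower, quantile normalization 4 and 16, and normexp 5 and 10. Myc, a growth factor-induced transcription factor, fell by -2.28 ± 0.52 (SE, adjusted p = 0.0019), and Cdk1, the mitotic kinase, by 0.81. Rb1, the retinoblastoma protein, and E2f3 rose by 1.59 and 1.12, with another E2f3 probe at 0.089. The replicative helicase subunits Mcm4 and Mcm6 rose by 0.62 and 0.59, the latter over 6 IVF blastocysts. Immediate early genes, which respond first to stimulation or stress, had 7 of 23 higher and 1 lower. Fos was 0.76, -0.37, -0.43 and -1.29 in clones 1 to 4, against -3.43 to -1.49 (median -3.15) in the IVF blastocysts, a rise of 2.52 ± 0.56 (SE, adjusted p = 0.0013), and Jun, its AP-1 partner, rose by 2.29. Klf10 and Jund rose by 1.70 and 1.55. With 1 blastocyst left out at a time, the call ended for Rb1 (without clone 2 or 4 or IVF blastocyst 1), E2f3 (without clone 2, 3 or 4 or IVF blastocyst 1 or 6), Mcm4 (without clone 3 or 4 or IVF blastocyst 2, 6 or 7) and Mcm6 (without clone 3). The threshold was missed without the dim arrays for Myc, Cdk1, Rb1, E2f3, Mcm4, Mcm6 and Jun and after normexp for Rb1, E2f3, Mcm4 and Mcm6.

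Protein quality control genes gave counts that depended on the scaling. Cytosolic chaperones had 9 of 20 higher and 1 lower, with a median of 0.78, and the whole chaperone list 11 of 32 higher and 2 lower, with a median of 0.49 that became -0.039 after normexp. The whole list had 3 higher and 4 lower under median scaling, 3 and 7 after quantile normalization and 2 and 5 after normexp. Dnajb4, a co-chaperone of Hsp70, was 1.22, 0.85, 2.19 and 1.48 in clones 1 to 4, against -2.30 to 0.031 (median -0.96) in the IVF blastocysts, a rise of 2.35 ± 0.39 (SE, adjusted p = 8.3e-05). Dnajb1 and Bag3, both induced by heat shock, rose by 1.21 and 0.92, while their other probes gave -0.18 and -0.16. Hsp90aa1 rose by 1.11 over 6 IVF blastocysts. Of 41 genes of the integrated stress and unfolded protein responses 10 were higher and 6 lower, against 2 and 8 with median scaling. The targets on this list had 8 of 27 higher and 2 lower, with a median of -0.052. Of single chaperones of the endoplasmic reticulum, Hyou1 rose by 1.74 ± 0.33 (SE, adjusted p = 0.00031) and Dnajc3 by 1.505 (other probes down to 0.32). The collagen chaperone Serpinh1, given above, fell, as did the factors Atf4 and Xbp1, by 0.73 and 0.94. The one-carbon enzymes Shmt2 and Mthfd2 and the kinase Eif2ak4 fell by 1.68, 1.38 and 1.41. Of 36 proteasome genes 10 were higher and 4 lower, which turned to 2 and 5 with median scaling or quantile normalization and to 1 and 7 after normexp. Psmb7, a catalytic subunit, rose by 1.54, and the activator subunit Psme3 fell by 1.41. Calls that ended when 1 blastocyst was left out were those of Atf4 (without clone 3 or 4) and Mthfd2 (without clone 1, 3 or 4 or IVF blastocyst 1, 6 or 7). Calls were lost without the dim arrays for Hsp90aa1, Atf4, Xbp1, Shmt2 and Mthfd2 and after normexp for Dnajb1, Bag3, Hsp90aa1 and Dnajc3.

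Lysosomal genes had 8 of 19 higher and none lower, with a median of 0.67, and autophagy genes 6 of 20 higher and 2 lower. Gabarapl1, which builds autophagosomes, was 6.24, 4.53, 4.17 and 5.02 in clones 1 to 4, against 1.78 to 3.03 (median 2.31) in the IVF blastocysts, a rise of 2.59 ± 0.34 (SE, adjusted p = 5.6e-06), with another probe at 1.22. Ulk1, the starting kinase of autophagy, and Atg14 rose by 1.57 and 1.43, and another Ulk1 probe gave 0.43. The proteases Ctsb and Ctsz rose by 1.21 and 1.24. Among glutathione and antioxidant enzymes 14 of 39 were higher and 8 lower, a majority that turned under the scalings named above. Nfe2l2 (NRF2), the master factor of antioxidant genes, rose by 1.35 ± 0.27 (SE, adjusted p = 0.00055), and Keap1, which degrades it, fell by -1.72 ± 0.39 (SE, adjusted p = 0.0016). Gsr and Txnrd1, reductases of glutathione and thioredoxin, rose by 1.26 and 0.86, while the peroxidase Gpx4 and the transferase Gstp1 fell by 0.63 and 1.11. Leaving out single blastocysts ended the call of Ctsz (without clone 1) and Txnrd1 (without clone 1 or 3 or IVF blastocyst 2). Calls ended without the dim arrays for Ctsz, Keap1, Txnrd1 and Gpx4 and after normexp for Ulk1, Atg14, Ctsb, Ctsz, Nfe2l2, Gsr and Txnrd1.

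DNA methylation genes had 7 of 19 lower and 2 higher, with a median of -0.68. Of the writers, Dnmt3b was 3.74, 4.07, 3.81 and 3.36 in clones 1 to 4, against 5.02 to 5.74 (median 5.67) in the IVF blastocysts, a difference of -1.82 ± 0.20 (SE, adjusted p = 5e-07). Dnmt1, which copies methylation at replication, was 0.37, 0.93, -0.22 and -0.32 in clones 1 to 4, against 0.88 to 2.99 (median 1.71) in the IVF blastocysts, a difference of -1.73 ± 0.31 (SE, adjusted p = 0.00017). Its recruiter Uhrf1 differed by -1.22 ± 0.23 (SE, adjusted p = 0.00032), and Dnmt3l, a cofactor of the de novo enzymes, by -1.13 ± 0.24 (SE, adjusted p = 0.00077). Dnmt3a was at -0.21 (adjusted p = 0.8). All of Dnmt3b, Uhrf1 and Dnmt3l lay below the whole IVF range in all 4 clones. Trim28, which keeps imprints, fell by 0.97, whereas its partner Zfp57 (-0.68, adjusted p = 0.073) did not pass. Of the erasers, Tet1 fell by 0.89, and Tdg gave 0.39 at its brightest probe but -0.63 at the other, while Tet2 (0.46) and Tet3 (-1.22) did not pass. With 1 blastocyst left out at a time, the call ended for Tet1 (without clone 2) and Tdg (without clone 3 or 4 or IVF blastocyst 2 or 6). Significance was lost without the dim arrays for Trim28, Tet1 and Tdg and after normexp for Tet1 and Tdg.

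Histone deacetylases, the targets of TSA, were examined because the clones had been exposed to it and the IVF blastocysts had not. Of 26 deacetylases and partners 6 were lower and 1 higher, with a median of -0.29. Hdac4 fell by 1.57, Hdac6, a tubulin deacetylase, by 1.11 and Hdac3 by 0.87. Chd4 and Mta1, subunits of the NuRD complex, fell by 1.76 and 1.58. Of 13 acetyltransferases and readers 4 were higher and 3 lower, against 1 and 4 with median scaling. The coactivators Crebbp and Ep300 rose by 1.28 and 1.03, and Kat2a and Kat5 fell by 1.63 and 1.28. Among enzymes of H3K9 methylation, a mark of closed chromatin, Suv39h1 and Setdb1 fell by 1.40 and 1.23, and Suv39h2 rose by 1.42. Of the Polycomb genes 7 of 31 were higher and 2 lower, against 3 and 6 with median scaling. Ring1 fell by -1.90 ± 0.31 (SE, adjusted p = 6.4e-05), with another probe at 0.07, and its paralogue Rnf2 rose by 1.64. Bmi1, a subunit of the same complex, rose by 1.59. Calls that ended when 1 blastocyst was left out were those of Hdac4 (without clone 4), Hdac6 (without clone 4), Hdac3 (without clone 3 or 4), Ep300 (without clone 1 or 3) and Suv39h2 (without clone 3 or 4). The threshold was missed without the dim arrays for Hdac4, Hdac6, Hdac3, Chd4, Crebbp, Ep300, Kat2a, Kat5, Suv39h2 and Rnf2 and after normexp for Hdac4, Mta1, Crebbp, Kat2a and Rnf2.

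Non-canonical imprints are held by H3K27me3 on the maternal allele. Of 18 measured genes, Xist among them, 8 were higher and none lower, with a median of 0.85. Bbx, a transcription factor, was 2.16, 1.65, 3.04 and 2.59 in clones 1 to 4, against -0.68 to 1.096 (median 0.32) in the IVF blastocysts, a rise of 2.05 ± 0.40 (SE, adjusted p = 0.00039), but other probes gave 0.43 and -0.27. Slc38a4, an amino acid carrier of the placenta, was 5.93, 5.75, 6.59 and 6.43 in clones 1 to 4, against 3.79 to 5.18 (median 4.61) in the IVF blastocysts, a rise of 1.57 ± 0.25 (SE, adjusted p = 5e-05). Gab1, an adaptor of receptor kinases, rose by 1.34, and Slc38a1 by 1.83, with other probes from -0.07 to 0.96. Canonical imprints gave lower counts. Of 20 paternally expressed genes 5 were higher and 2 lower, with Mcts2 at 1.66, Ddc at 1.54 and Igf2, a fetal growth factor, at -1.004. Of 21 maternally expressed genes 1 was higher and 4 lower, with Cobl on the floor in all clones, Meg3, a noncoding RNA, at -2.41 and Gnas, a G protein subunit, at -0.93. Leaving out single blastocysts ended the call of Ddc (without clone 4) and Igf2 (without clone 1, 3 or 4 or IVF blastocyst 1, 6 or 7). Calls were lost without the dim arrays for Gab1, Ddc, Igf2, Meg3 and Gnas and after normexp for Gab1, Ddc, Meg3 and Gnas.

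Sterol synthesis, the pathway from acetyl-CoA through mevalonate to cholesterol, had 10 of 25 genes lower and 2 higher, with a median of -0.59. Mvk, which phosphorylates mevalonate, was -1.56, -0.27, -2.45 and -1.73 in clones 1 to 4, against 0.018 to 1.24 (median 1.09) in the IVF blastocysts, a difference of -2.25 ± 0.42 (SE, adjusted p = 0.00025), with another probe at -0.75. Mvd, the decarboxylase that follows, was 0.96, 0.73, -0.54 and -0.63 in clones 1 to 4, against 1.92 to 2.84 (median 2.35) in the IVF blastocysts, a difference of -2.26 ± 0.38 (SE, adjusted p = 9e-05). Sqle, Cyp51 and Fdps of the same route fell by 1.63, 1.61 and 1.58, and Insig1, which holds back the sterol sensor, by 1.12. The higher genes were Ebp and Scap, the escort of the sterol factor SREBP, at 0.78. The mean over the list was 2.67, 2.85, 2.71 and 2.61 in clones 1 to 4 and 3.07 to 3.73 in the IVF blastocysts, so the groups did not overlap. With 1 blastocyst left out at a time, the call ended for Insig1 (without clone 1, 3 or 4 or IVF blastocyst 7). Calls ended without the dim arrays for Cyp51, Fdps and Insig1 and after normexp for Insig1 and Scap.

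Fatty acid genes divided by role, while the median of the whole list, 0.25, turned under 3 settings. Of 17 synthesis and desaturation genes 6 were lower and 4 higher (median -0.56), and of 25 storage, uptake and breakdown genes 12 were higher and 1 lower (median 0.49). Over both roles 16 were higher and 7 lower, against 6 and 10 with median scaling or after normexp. Fasn, fatty acid synthase, was 2.36, 1.32, 1.498 and 1.04 in clones 1 to 4, against 4.05 to 4.73 (median 4.58) in the 6 IVF blastocysts with a value, a difference of -2.91 ± 0.43 (SE, adjusted p = 2.1e-05), with another probe at -1.20. Acaca and Acly, which supply it with malonyl-CoA and acetyl-CoA, fell by 1.90 and 1.46, although other probes gave 0.25 and 0.02. Cidea, a lipid droplet protein, was 2.37, 0.63, 0.59 and 1.04 in clones 1 to 4, against -2.90 to -0.80 (median -1.64) in the IVF blastocysts, a rise of 2.79 ± 0.62 (SE, adjusted p = 0.0013). Cpt1a, which admits fatty acids to mitochondria, rose by 1.68, with another probe at 0.50, and the oxidation enzymes Acadl and Hadhb by 1.36 and 0.88. Lpl, lipoprotein lipase, fell by 2.17. Significance was lost after normexp for Acadl and Hadhb and under another setting for Fasn.

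Promoters of Mvk, Mvd and Fasn are shown because these genes led the falls in lipid synthesis and share the letters CCAAT, the box bound by NF-Y. CCAAT was searched on both strands in the 250 bases before the first RefSeq start listed for a gene in GRCm38.p6. It was found in 15 of 18 sterol promoters present in the table (83.3%) and in all 7 of the lower sterol genes with a promoter, against 36.3% of 10567 promoters of genes tested and 34.5% of 27025 in the table. Mvk is at chr5:114444019-114444268 on the plus strand with 5 matches, Mvd at chr8:122443423-122443672 on the minus strand with 2, and Fasn at chr11:120824548-120824797 on the minus strand with 3. Sequences run 5′ to 3′ with matches in capitals, and in Fasn a pair of matches on opposite strands overlap.
Mvk: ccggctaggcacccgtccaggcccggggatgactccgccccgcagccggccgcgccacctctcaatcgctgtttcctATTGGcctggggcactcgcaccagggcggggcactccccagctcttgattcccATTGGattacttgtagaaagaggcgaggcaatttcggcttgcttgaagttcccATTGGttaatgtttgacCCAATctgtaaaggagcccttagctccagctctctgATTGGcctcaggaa
Mvd: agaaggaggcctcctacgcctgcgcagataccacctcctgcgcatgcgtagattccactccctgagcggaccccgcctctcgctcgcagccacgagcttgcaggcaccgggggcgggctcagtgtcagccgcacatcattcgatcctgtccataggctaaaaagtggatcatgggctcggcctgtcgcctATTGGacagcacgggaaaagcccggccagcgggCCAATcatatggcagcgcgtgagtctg
Fasn: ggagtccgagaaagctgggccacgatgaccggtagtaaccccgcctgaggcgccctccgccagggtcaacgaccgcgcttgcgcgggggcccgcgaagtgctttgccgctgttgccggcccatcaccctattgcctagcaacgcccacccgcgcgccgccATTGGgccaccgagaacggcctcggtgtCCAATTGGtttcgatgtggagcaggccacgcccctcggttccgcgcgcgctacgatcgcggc
The other 8 of the 15 sterol promoters with the box belonged to genes that were not called lower.

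Glycolysis had 4 of 31 genes higher and 7 lower, with a median of 0.051 that turned under 4 settings. Pgk1 on the X chromosome, Ldha, Eno1 and Pfkm were lower by 2.93, 1.81, 1.45 and 2.35, and Hk1, the first kinase of the route, was higher by 2.36 ± 0.45 (SE, adjusted p = 0.00032). Of 22 amino acid transporters 4 were higher and 5 lower. Slc1a5, which carries glutamine, was 0.78, 1.11, 0.53 and -0.054 in clones 1 to 4, against 1.18 to 3.54 (median 3.01) in the IVF blastocysts, a difference of -2.28 ± 0.34 (SE, adjusted p = 2.6e-05), and Slc1a4 and Slc1a3 of the same family fell by 2.55 and 1.82, while Slc1a1 rose by 1.59. The threshold was missed without the dim arrays for Ldha and Slc1a4 and after normexp for Eno1.

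Genes of the germ line and of earlier stages were few but included large changes. Of 21 germ-line and piRNA genes 4 were higher and 3 lower, against none and 3 with median scaling. Mael, which silences transposons with piRNAs, was 0.29, 1.76, 0.94 and 0.42 in clones 1 to 4, against 3.03 to 4.27 (median 3.75) in the IVF blastocysts, a difference of -2.84 ± 0.68 (SE, adjusted p = 0.0027), and Asz1 of the same pathway was on the floor in all clones. Tex19.1, a gene of germ line and placenta, rose by 1.13. Of 13 measured genes of the 2-cell programme 5 were higher and 1 lower, led by Tdpoz1 at 3.09 ± 0.45 (SE, adjusted p = 1.7e-05), whose other probe gave 0.47. Of 13 maternal transcripts 1 was higher and 1 lower, Khdc3 at 0.80 and Tle6 at -1.36, both of the oocyte's subcortical complex. Of 19 innate immune genes 2 were higher and 2 lower, with Oas1a, an antiviral synthetase, at least 10.9-fold lower. Calls were lost without the dim arrays for Mael and after normexp for Tex19.1 and Khdc3.

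Markers of the donor neuron and of other cells were read in both groups. Of 7 neuron markers 3 were measured well enough to test, and none was called. Their summed signal on the linear scale, as a multiple of the 75th percentile, was 0.943 to 3.27 in clones and 2.08 to 10.2 in IVF blastocysts. Rbfox3, Syp, Snap25 and Syt1 did not pass the filter on dim probes. Of 6 Purkinje markers 5 were tested, with a summed signal of 5.44 to 7.15 in clones and 1.13 to 3.56 in IVF blastocysts. The sums did not overlap. Of those tested 1 was called, higher. Itpr1, a calcium channel, was at 1.66 (adjusted p = 0.17). Pcp2 (-0.30), Pcp4 (0.30) and Car8 (0.029) did not pass, and Calb1 was well above background on no array. In the longer list of 9 measured Purkinje genes 1 was higher and 1 lower. Of 6 cumulus markers 2 were tested and none was called, with sums of 0.186 to 0.351 in clones and 0.186 to 0.222 in IVF blastocysts. Of 17 measured pan-neuronal genes the enzymes Uchl1 and Eno2 rose, by 2.43 and 1.73, and the synaptic vesicle proteins Vamp2 and Syn1 fell, by 1.09 and 1.01, with other Vamp2 probes at -0.054 and 0.034. The part of these markers in the results was not tested. Calls that ended when 1 blastocyst was left out were those of Uchl1 (without clone 1), Eno2 (without clone 2) and Vamp2 (without clone 1). Calls ended without the dim arrays for Vamp2, after normexp for Vamp2 and Syn1, and under another setting for Uchl1 and Eno2.

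The clones were not equally far from IVF in every gene. Among genes well above background on all 11 arrays with an IVF range under 2 log2 units, the widest spread between clones was that of Hook1, a microtubule linker, at -3.43, 2.27, -0.53 and -0.41 in clones 1 to 4, against 0.42 to 1.72 (median 0.86) in the IVF blastocysts. Aldh1a1, which makes retinoic acid, was -2.59, -0.86, 2.69 and -0.36 in clones 1 to 4, against 0.45 to 1.96 (median 1.67) in the IVF blastocysts. Neither gene passed the test, since clones lay on both sides of IVF. Pfkfb1, an X-linked regulator of glycolysis, was -3.32, 1.38, -0.61 and -1.01 in clones 1 to 4, against 1.02 to 2.87 (median 2.15) in the IVF blastocysts, and Pp2d1, a phosphatase-like gene, was 0.43, -0.67, 3.24 and 3.76 in clones 1 to 4, against -0.58 to 0.64 (median -0.11) in the IVF blastocysts. In Pfkfb1 clone 2 was within the IVF range and the other 3 below it, and in Pp2d1 the dim arrays were above it and the other clones within it or at its edge. Khdrbs3, an RNA-binding protein, was -3.43, -0.019, 1.26 and -0.28 in clones 1 to 4, against -1.14 to 0.084 (median -0.84) in the IVF blastocysts, with clone 1 on the floor. Of these 8 widest genes Maoa, Plac1 and Xlr4b are given above.

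The male Purkinje clones were also set against other male clones, which shared their treatment, scanner and software but neither their donor cell nor their slide and scan day. Donor cell and slide therefore cannot be told apart here. Against 4 male clones of hippocampal CA1 neurons 2921 genes (18.5%) differed, 1723 (10.9%) higher and 1198 (7.59%) lower, and against 4 clones of Sertoli cells 756 (4.79%), 531 (3.36%) higher and 225 (1.42%) lower. Each comparison uses the same 4 Purkinje arrays, so the counts are not independent of each other. The majority turned with median scaling, to 773 higher and 1159 lower against CA1 and 182 and 219 against Sertoli, and after quantile normalization to 1245 and 1436 against CA1. Against CA1 the count was 1743 without Purkinje clone 3, 1724 without clone 4 and 1810 without CA1 clone 4, and against Sertoli 420 and 371 without Purkinje clones 3 and 4. In 189 genes the Purkinje clones were higher, and in 62 lower, than IVF, CA1 and Sertoli blastocysts alike. These were ranked by the smallest of the 3 differences.

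Mark1, a kinase of microtubule-binding proteins, was -1.26, -0.93, 0.53 and 0.58 in clones 1 to 4, against -3.03 to -1.15 (median -2.53) in the IVF blastocysts, and exceeded CA1 clones by 2.54 and Sertoli clones by 2.01. Prxl2a, a redox protein, was 7.85, 8.62, 8.93 and 9.02 in clones 1 to 4, against 6.28 to 7.55 (median 6.87) in the IVF blastocysts, and exceeded them by 1.85 and 2.02. Myt1l, a neuronal zinc-finger factor, was above IVF by 2.18, CA1 by 2.29 and Sertoli by 3.36, although other probes gave 0.87 and -0.63 against IVF. Cds1, which makes a phospholipid precursor, was above IVF by 1.96, while its other probe gave 0.0042. Among the lower genes, Fasn differed by -2.91, -2.39 and -2.38 from IVF, CA1 and Sertoli, and Mvd by -2.26, -3.12 and -2.13. Slc1a5 differed by -2.28, -2.52 and -1.90. Afap1, an actin-binding protein, Phyhd1, an oxygenase, Hpn, a membrane protease, Ano10, an anoctamin, and Tfr2, a transferrin receptor, completed the group at -2.73, -2.79, -2.27, -1.90 and -1.87 from IVF, with other Afap1 probes at 0.23 and 0. In the sterol list 10 genes were lower than in CA1 clones and 9 lower than in Sertoli clones, with none higher in either. In the p53 list 3 genes were higher than in CA1 clones and 3 higher than in Sertoli clones. Leaving out single blastocysts ended the call of Myt1l (without clone 3). Significance was lost without the dim arrays for Mark1, Myt1l, Hpn, Ano10 and Tfr2, after normexp for Ano10 and Tfr2, and under another setting for Fasn.

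Female Purkinje clones and female IVF blastocysts, 4 and 3 arrays, shared no array with the male comparison but did share its array sets. The female and male Purkinje arrays had 1 scan day, scanner and software in common, and the female IVF arrays lay on the slide of male IVF blastocyst 5. There 3114 genes (19.7%) were called, 2060 (13%) higher and 1054 (6.67%) lower. Median scaling turned this to 463 higher and 2789 lower and quantile normalization to 1180 and 1388, and the scan day block left 1778 calls. Of the 2885 genes higher in male clones 2759 (95.6%) had the same sign in females and 1428 (49.5%) were called in the same direction. Of the 1628 genes lower in males 1492 (91.6%) had the same sign and 642 (39.4%) were called. The 2070 genes called in the same direction were 45.9% of the male calls and 66.5% of the female calls, and 1 gene was called in opposite directions. The female Purkinje arrays were dim like the male ones, and 3 of 4 had a 75th percentile under 500. In cumulus clones against the same female IVF blastocysts, arrays of the IVF scanner and software, 839 genes (5.31%) were called, 308 (1.95%) higher and 531 (3.36%) lower. The cumulus count was 196 after normexp, 219 with the scan day block, and 478, 377, 458 and 224 without female IVF blastocyst 1 or 2 or cumulus clone 1 or 2. There 3067 of the 4513 male calls (68.0%) had the same sign, 333 (7.38%) were called in the same direction and 30 in the opposite direction. Of the genes apart from IVF, CA1 and Sertoli, 185 of 189 higher ones kept their sign in females and 119 were called, and of 62 lower ones 52 and 25. Over all male calls the sign was kept by 2759 of 2885 higher and 1492 of 1628 lower genes. The same-sign share over all genes tested was not counted for females or cumulus clones. Both Purkinje comparisons also shared a median difference above the zero line, 0.069 in males and 0.080 in females.

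**Figure D5:**
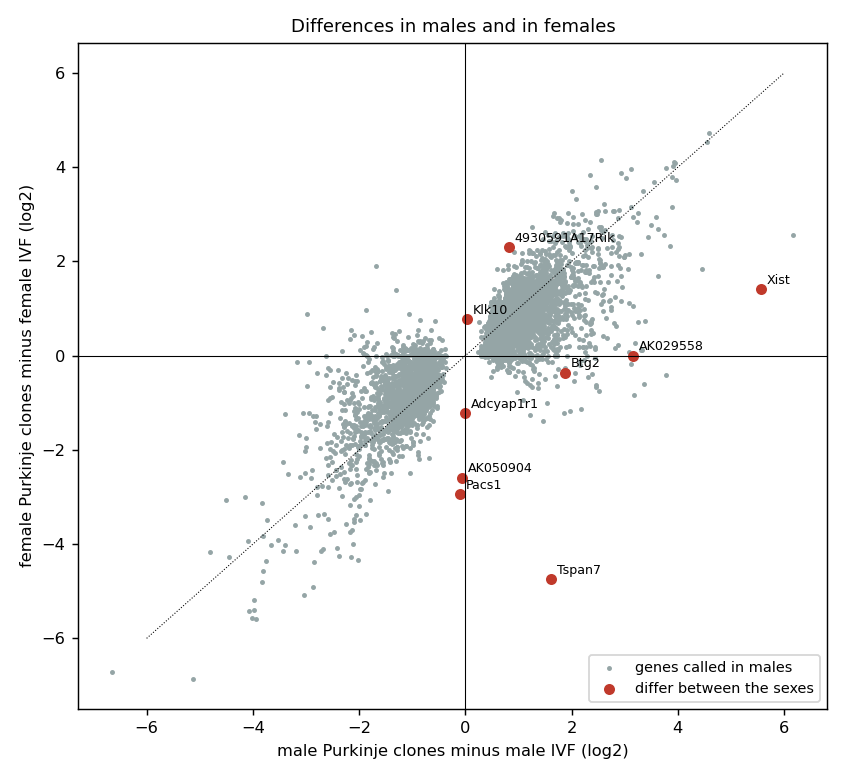
Difference between Purkinje clones and IVF blastocysts in males (horizontal axis, log2) and in females (vertical axis, log2) for the genes called in males or differing between the sexes. Each point is 1 gene and the dotted line marks equal differences. Of 4513 genes 4251 (94.2%) have the same sign in both, and the 9 genes whose difference itself passed the test are named. The same-sign share over all genes tested was not counted.

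The difference between the male and female effects was tested for each gene, and 9 genes (0.057%) passed, 7 (0.0443%) with the male difference above the female one and 2 (0.0127%) with it below. The count was 16 without male Purkinje clone 2, 14 and 19 without male IVF blastocyst 3 or 5, 15 without female Purkinje clone 1, and 20 without female IVF blastocyst 2 or 3. After normexp limma called none, with 401 genes at an unadjusted p under 0.05 against 1207. Without the dim arrays 7 were above and 19 below, and in the authors' values 2 and 5. Differences between the sexes in the counts of a list were not tested. The p53 list had 4 genes higher and 1 lower in females with a median of 0.15, against 16 and 2 with a median of 0.88 in males, and single genes other than Btg2 did not pass the test of the difference. Btg2 was 1.88 in males and -0.36 in females (adjusted p of the difference = 0.009). Cdkn1a was 3.38 and 0.75 (adjusted p of the difference = 0.44). Rhox5 rose by 6.17 in males and by 2.56 in females (adjusted p of the difference = 0.19). Sterol genes had 4 higher and 3 lower in females with a median of 0.12, while primitive endoderm (1 higher, 9 lower, median -1.35) and DNA methylation (4 higher, 8 lower, median -1.04) held more lower than higher genes there too. Xist was higher by 5.57 in males, a value set by the floor, while in females it was at 1.41 and missed the threshold (adjusted p = 0.066). The male and female differences themselves differed for Xist (adjusted p = 0.0062), and female blastocysts carry an inactive X of their own.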

How the data were processed

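The deposited scanner files held spot intensity, per the file headers, and the submitters' processing notes name Agilent Feature Extraction 10.5.1. The processed signal was already background-corrected by the authors' scanner software, whose version differed between Purkinje clones and IVF blastocysts. This signal was divided by the array's 75th percentile, floored at 0.0929 (-3.43 on the log2 scale, where 19.9% of the values lay) and converted to log2. The floor is the highest over 33 arrays of the 1st percentile of signals well above background. Control and outlier spots were left out. Names came from the RefSeq gene table for 22951 of 41174 probes by accession, 6659 by symbol and 3109 by a synonym. For 8455 probes the name in the scanner file was used. The 22787 probes kept were well above background in more than 50% of the arrays of some group, exceeded the floor in 3 or more arrays and had 2 or more values per group. The brightest probe stood for each of 15793 genes (551 X-linked). The authors' deposited log2 table, centred by sex, served as an alternative.

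With limma 3.58.1 (R 4.3.3), the means of 8 groups were estimated jointly from the 33 arrays (residual degrees of freedom 25), with Benjamini-Hochberg adjustment over all genes tested and calls at an adjusted p under 0.05. Every adjusted p comes from limma, and 6178 genes had an unadjusted p under 0.05. Differences are clones minus IVF on the log2 scale. A difference between sexes was tested as an interaction contrast, a test added after the data were seen. A bound compares the mean of the brighter group with the floor or the dimmer group's own signal, whichever was higher. The alternatives changed scaling, background (normexp, offset 50, on median signals because the mean signal was not in the Purkinje files), floor, filter, probe rule, weights, blocks and arrays. The procedure was tested on simulated data with independent normal noise around the group means. The simulation had no floor, slide effect or dim arrays, so it cannot show how these affect the calls. Members and gene lists were chosen with earlier results of these data known.

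Genes were named by rule: the 12 largest rises and falls without overlap, the 6 largest bounds each way, up to 4 called genes of each list plus the lineage, DNA methylation and p53 lists, the 8 genes each way most apart from IVF, CA1 and Sertoli, and the 8 with the widest clones. Other genes named were chosen after their values were seen, and some genes the rule gives are not reported here. Replicate numbers were not taken to pair samples, because deviations of same-numbered clones and IVF blastocysts correlated at 0.244, -0.0604, 0.162 and 0.171. Promoter sequences are from RefSeq (GRCm38.p6). Arrays give no counts, so their number limits the precision.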

Additional observations from a re-analysis of the deposited data

Results flagged for a closer look

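Single blastocysts stood far from the rest of their group in 21 of 430 groups of values tested with Dixon's criterion, and chance gives about 1 in 20. Among the clones these were clone 1 for Dnmt3l (5.10), Klf4 (3.91) and Lpl (-1.40), clone 2 for Cyp51 (0.815), Esrrb (-0.525), Jun (0.416), Klra1 (-2.18), Mthfd2 (0.756) and Timm8a1 (5.78), and clone 3 for Plk2 (0.39). Among the IVF blastocysts they were blastocyst 1 for Jund (4.04) and Lpl (2.63), blastocyst 2 for Aen (5.68), Ddc (-0.767), Dnmt3b (5.02), Slc1a4 (-0.481) and Slc1a5 (1.18), blastocyst 4 for Oas1a (-1.15), and blastocyst 5 for Asz1 (1.28), Cds1 (-3.07) and Hsp90aa1 (7.21). All are log2 signals over the 75th percentile of the array.

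The difference between Purkinje clones and IVF blastocysts was not the same in males and females for 9 genes by the interaction test in limma. Values given here are the male minus the female log2 difference. Higher in males were Tspan7 (6.36), an X-linked tetraspanin, Xist (4.16), AK029558 (3.17) from the Y chromosome, Pacs1 (2.84), AK050904 (2.53), Btg2 (2.24) and Adcyap1r1 (1.22), a neuropeptide receptor. Lower were 4930591A17Rik (-1.48) and Klk10 (-0.746). AK029558 was on the floor in male IVF blastocysts and in females, which lack the Y chromosome, so its value is the male difference and a bound. In males Tspan7 did not pass against IVF, and Adcyap1r1, Pacs1, AK050904 and Klk10 were on or near the floor in clones and IVF blastocysts. Against female IVF blastocysts, female Purkinje clones gave -4.74 for Tspan7, -2.95 for Pacs1, -2.59 for AK050904 and -1.22 for Adcyap1r1. Cumulus clones gave -3.84, -2.96, -1.99 and -1.22 there. For these genes a high level in the female IVF blastocysts, all on the same slide, and a sex-dependent effect of Purkinje cloning cannot be told apart. The remaining genes were not lower in cumulus clones.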

How the results depend on the processing

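The count of higher genes, 2885, was 1064 with median scaling, 1869 after quantile normalization and 1121 without the dim arrays. The count of lower genes, 1628, was 1023 in a fit of the 11 arrays alone, 2577 with median scaling, 1011 with the scan day block and 561 without the dim arrays. Higher genes made 63.9% of the calls, against 29.2% with median scaling and 46.9% after quantile normalization. Median scaling moved the median of all genes to -0.139 and normexp moved it to 0.272. With 1 blastocyst left out the counts ran from 2064 to 3022 higher and from 1096 to 1854 lower. The replicate block gave 2292 and 1218, though the numbers do not pair the samples. Against CA1 clones the 2921 genes were 1932 with median scaling, 594 without the dim arrays, 4756 with array weights and 1381 with the scan day block, and 1724 to 3416 with 1 array left out. Against Sertoli clones the 756 genes were 401 with median scaling, 1335 after normexp, 185 without the dim arrays, 2062 with array weights and 249 with the scan day block, and 371 to 945 with 1 array left out. In females the 3114 genes were 309 without the dim arrays, 1778 with the scan day block and 2112 to 3461 with 1 array left out. For cumulus clones the 839 genes were 500 with median scaling, 196 after normexp, 409 in the authors' values, 1308 with array weights, 219 with the scan day block and 224 to 666 with 1 array left out. The 9 genes that differed between the sexes were 0 after normexp (limma, 401 at an unadjusted p under 0.05), 26 without the dim arrays, 5 with the higher floor, 18 with array weights and 8 to 20 with 1 array left out. These leave-outs, and all alternatives for cumulus clones and the sexes, were chosen after seeing the data. Of 210 called genes that were checked by name, 88 kept direction and call under every alternative. By setting 124 kept both without the dim arrays, 145 after normexp, 177 in the fit of the 11 arrays alone and 179 with median scaling. With the scan day block 184 did, with the replicate block 186 and after quantile normalization 193. Reversed after normexp were Gata4 (0.31), Gnas (0.18), Mcm6 (-0.26), Tet1 (0.049), Vamp2 (0.16), Tdg (-0.051) and Adcyap1r1 (1.51, from 0 to a call). Reversed after quantile normalization were Dppa5a (-0.016), Tdg (-0.050) and Krt18, which then passed (-0.38). Over the mean of all probes Spry2 (-0.77) and Tdg (-0.12) reversed, and without the dim arrays Pp2d1 (-0.016). The causes were not tested. Clone arrays were dimmer than IVF arrays, so low levels are measured less well in clones, and genes near the floor have bounds only.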
